A study of Gallus gallus with 20 samples.

Results

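The genes described here build cholesterol and fatty acids, and they were followed in the hypothalamus and pituitary of Korat chickens that differed in feed efficiency. Of 39 gene symbols listed for these pathways, 36 were matched by symbol among the 28021 genes of the deposited count table. They comprise 16 enzymes of cholesterol synthesis, 5 sterol regulators and 15 enzymes that make, elongate, desaturate or activate fatty acids. The symbols IDI1, EBP and FADS1 were not matched and are not analysed here. All 36 matched genes passed the low-count filter in every comparison.

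Total RNA was sequenced from 20 libraries of pooled birds, all male Korat chickens, a slow-growing Thai meat chicken, aged 10 weeks and given commercial feed without restriction. Residual feed intake (RFI) is the feed a bird eats beyond what its weight and growth predict, so a low RFI bird is feed efficient. Birds from the extremes of RFI among 200 males formed a low and a high RFI group, and each tissue has 5 libraries of each group by title. The labels state 10 birds a group in 5 pools for the hypothalamus. For the pituitary they state 8 birds a group, with birds of neighbouring RFI rank pooled in pairs into 4 pools, which does not match the 5 library titles of each group. Separate pools therefore cannot be assumed for all pituitary libraries, and p-values measure the spread between these libraries. Whether the tissues came from the same birds is not given in the sources used here.

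Cholesterol is made from acetyl-CoA through mevalonate, isoprenoid units, squalene and lanosterol, and most of the cholesterol of the brain is made inside the brain. Fatty acid synthesis starts from the same acetyl-CoA: acetyl-CoA carboxylase and fatty acid synthase make palmitate. Elongases (ELOVL) lengthen fatty acids and desaturases (SCD, FADS2) give them double bonds. Of these, SCD makes oleate, while FADS2, ELOVL2 and ELOVL5 act on polyunsaturated fatty acids. In vertebrate cells the transcription factors SREBF2 and SREBF1 raise the genes of sterol and fatty acid synthesis, respectively, with overlap. Both are carried to the Golgi by SCAP when sterols are low and held in the endoplasmic reticulum by the INSIG proteins when sterols are high. Myelin, the lipid-rich sheath laid down by oligodendrocytes, is a large user of both pathways in nervous tissue.

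Hypothalamic libraries held 11418600 to 12647034 counts each, and pituitary ones 10262777 to 11960994. Tissue identity was checked on marker genes. Levels are in FPKM as deposited, fragments per kilobase of gene divided by 1 size per library. Summed FPKM of 12 pituitary hormone and lineage genes ranged from 15849 to 95424 across pituitary libraries and from 8.21 to 41.8 across hypothalamic ones. Summed FPKM of 10 neuron markers was 2121 to 3333 in hypothalamic libraries and 297 to 2032 in pituitary ones. The mitochondrial share of counts was 13.9 to 20.1% for hypothalamic and 5.18 to 11.0% for pituitary libraries. Low RFI library 1 of the pituitary stood apart: its 11 measured oligodendrocyte markers summed to 7508 FPKM, against 134 to 3593 in the other 9, and its endocrine sum of 15849 FPKM was the lowest. It also had the highest pituitary sums of neuron markers (2032 FPKM, pituitary median 488), of 8 astrocyte and tanycyte markers (1442 FPKM, median 579) and of 4 pineal and choroid plexus genes (952 FPKM, others 5.46 to 38.3), and the lowest of 9 fibroblast and meninges markers (308 FPKM, median 1112). High RFI library 1 had the next highest oligodendrocyte sum, 3593 FPKM. In the hypothalamus, low RFI library 2 had the lowest oligodendrocyte sum (7799 FPKM, against 12647 to 20306) and a summed level of 36307 FPKM for the pineal and choroid plexus genes, against 14.3 to 113.6 in the other 9. No oligodendrocyte marker measured was at 0 throughout a group.

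Both pathways were expressed at a lower level in the pituitary than in the hypothalamus, the fatty acid enzymes by more. The 16 cholesterol enzymes summed to 713 ± 49.7 hypothalamic and 467 ± 90.2 pituitary FPKM (mean ± SD, n = 10 libraries each). The corresponding sums for the 15 fatty acid enzymes were 899 ± 80.4 and 392 ± 123 FPKM. No hypothalamic library fell below 747 FPKM for the fatty acid sum and no pituitary library exceeded 690.0, whereas the cholesterol sums overlapped, with a lowest hypothalamic value of 642 and a highest pituitary value of 651. In bulk tissue, fewer cells of a type and less RNA per cell cannot be told apart.

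By edgeR's quasi-likelihood test, 11 of 16 cholesterol enzymes were lower in the pituitary at an adjusted p under 0.05, 1 was higher and 4 did not pass. Of the 15 fatty acid enzymes, 11 were lower, 2 were higher and 2 did not pass. Of all 16747 genes tested, 70.8% were called, 32.5% lower and 38.3% higher in the pituitary. The median log2 fold (pituitary minus hypothalamus) was -0.50 for the cholesterol enzymes and -0.76 for the fatty acid enzymes, beside 0.07 for all genes. A fold of at least 2 was passed by 3 cholesterol enzymes and 4 fatty acid enzymes, all lower, against 14.6% of all genes, and by 0 that were higher, against 16.8% of all genes. Both counts of 11 were the same with each of the 20 libraries left out in turn. Most oligodendrocyte markers moved with this difference: 10 of 11 were called lower in the pituitary and 1 was called higher, at a log2 fold of 1.60. Their sums were 7799 to 20306 FPKM in hypothalamic libraries against 134 to 7508 in pituitary ones. Of the neuron markers 9 of 10 were called lower (median log2 fold -1.91). Of the astrocyte and tanycyte markers 6 of 8 were lower and 2 higher (median -1.92, sums of 1892 to 3076 FPKM against 335 to 1442). Fibroblast and meninges markers were 5 higher and 3 lower of 9 (median 2.36). The part of these cell types in the difference was not tested.

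**Figure D1:**
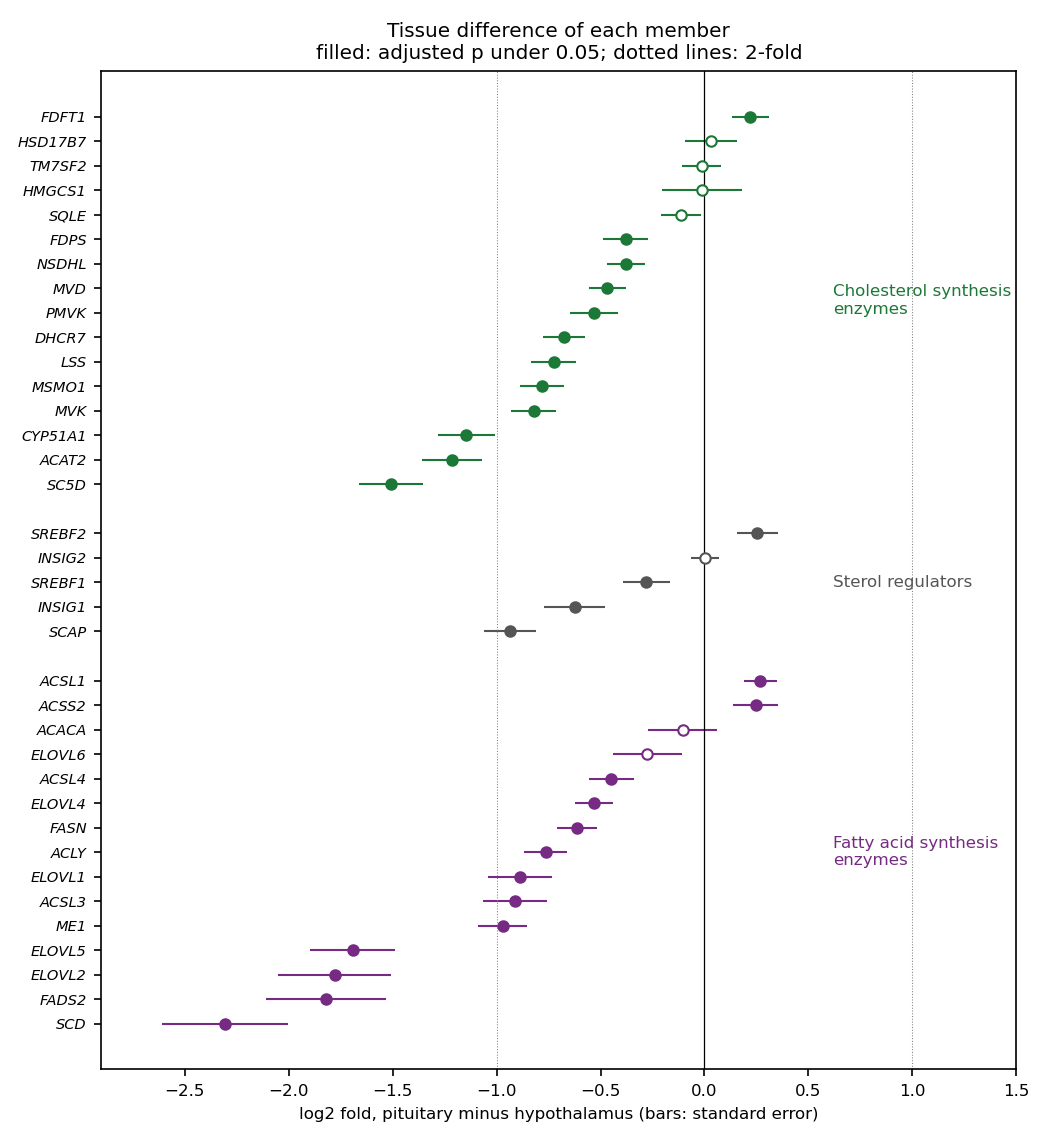
Log2 fold of each of the 36 genes between pituitary and hypothalamus, with its standard error (20 libraries), sorted within cholesterol enzymes, sterol regulators and fatty acid enzymes. Filled points passed the test: 11 cholesterol and 11 fatty acid enzymes lie to the left of 0, and SCD is farthest, at -2.30.

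The early steps of cholesterol synthesis differed among themselves. ACAT2, the cytosolic thiolase that joins acetyl-CoA units (chromosome 3, 45699532 to 45707626, minus strand, GRCg6a as for every position here), was at 81.1, 84.0, 84.8, 85.7 and 71.7 FPKM in low RFI libraries 1 to 5 of the hypothalamus and 92.3, 90.0, 92.2, 70.8 and 78.4 in the high RFI ones. In the pituitary it was at 52.6, 57.4, 24.9, 25.1 and 31.5 FPKM in the low RFI libraries and 42.3, 31.7, 25.3, 32.6 and 28.8 in the high RFI ones. Every pituitary library lay below every hypothalamic one, which held in this direction for 8.73% of all genes. The log2 fold was -1.21 (SE 0.14, edgeR adjusted p = 8.575e-07). The ACAT2 gene overlaps TCP1 on the opposite strand, which averaged 80.0 FPKM against 59.2 for ACAT2, and since it is not given whether counting used strand, reads of the overlap may be shared.

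HMGCS1, which makes HMG-CoA for the mevalonate pathway, had about the same mean in both tissues, 68.4 ± 11.6 FPKM in the hypothalamus and 67.3 ± 32.5 in the pituitary (n = 10 each). Its log2 fold was -0.01 with a 95% interval of -0.42 to 0.39. The pituitary values of HMGCS1, described in full because of their spread, were 61.5, 150.3, 78.6, 40.8 and 60.4 FPKM in the low RFI libraries and 81.9, 47.8, 59.0, 37.2 and 55.7 in the high RFI ones. Low RFI library 2 was thus far above the other 9, and without it the fold was -0.20. The enzymes that follow were lower in the pituitary: mevalonate kinase MVK by 0.82 on the log2 scale, phosphomevalonate kinase PMVK by 0.53, the decarboxylase MVD by 0.47, and FDPS, which makes farnesyl diphosphate, by 0.38 (edgeR adjusted p from 3.263e-06 for MVK to 0.004474 for FDPS).

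At the branch into sterols, FDFT1, which makes squalene, was the one cholesterol enzyme called higher in the pituitary, at 52.4 ± 9.07 FPKM against 45.8 ± 3.75. Its log2 fold was 0.22 (SE 0.09, edgeR adjusted p = 0.03325), and the call was lost in 10 of the 20 fits that left out 1 library (edgeR adjusted p up to 0.07523). These were the fits without hypothalamic low RFI library 1, 2 or 5 or high RFI library 1, 2, 4 or 5, or without pituitary low RFI library 3 or 5 or high RFI library 1. SQLE, the squalene epoxidase, did not pass, with a log2 fold of -0.11 (95% interval -0.31 to 0.09). The FPKM ratio of FDFT1 to FDPS, chosen after the values were seen and given without a test, averaged 1.32 in the pituitary (0.901 to 2.00) and 0.855 in the hypothalamus (0.704 to 0.960). LSS, which closes squalene epoxide into lanosterol, was lower in the pituitary by 0.72 on the log2 scale.

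Among the enzymes that turn lanosterol into cholesterol, SC5D had the largest fold of the sterol pathway. SC5D, the sterol C5 desaturase (chromosome 24, 3559479 to 3564721, minus strand), was at 51.7, 42.2, 44.7, 47.0 and 43.1 FPKM in the low RFI hypothalamus and 54.2, 52.6, 42.9, 51.6 and 38.8 in the high RFI one. The pituitary values were 28.5, 20.1, 12.0, 9.97 and 13.5 FPKM for low RFI and 16.8, 14.2, 13.2, 19.6 and 14.1 for high RFI. The tissues did not overlap, and the log2 fold was -1.51 (SE 0.15, edgeR adjusted p = 1.413e-07). CYP51A1, the lanosterol demethylase (chromosome 2, 22493952 to 22507735, minus strand), was at 77.8, 69.6, 80.2, 90.4 and 84.7 FPKM in the low RFI hypothalamus and 97.2, 104, 85.2, 73.7 and 86.1 in the high RFI one. Its pituitary values were 53.8, 49.6, 36.4, 23.2 and 34.4 FPKM for low RFI and 50.0, 37.0, 29.8, 36.0 and 26.2 for high RFI. Again the tissues did not overlap (log2 fold -1.14, SE 0.14, edgeR adjusted p = 1.025e-06).

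MSMO1, the C4 methyl oxidase that acts after CYP51A1, was the most abundant cholesterol enzyme in both tissues, at 125 ± 11.8 FPKM in the hypothalamus and 71.1 ± 13.8 in the pituitary, and its tissue values did not overlap (log2 fold -0.78). NSDHL, the next dehydrogenase, was lower by 0.38 and DHCR7, a reductase at the end of the pathway, by 0.67 on the log2 scale. HSD17B7, the C3 ketoreductase, and TM7SF2, a sterol C14 reductase, did not pass, with log2 folds of 0.03 (95% interval -0.23 to 0.30) and -0.01 (-0.21 to 0.18). HSD17B7 overlaps DDR2 on the same strand, which averaged 2.45 FPKM against 9.14 for HSD17B7. In all, 4 of 16 cholesterol enzymes (ACAT2, CYP51A1, MSMO1 and SC5D) and 4 of 15 fatty acid enzymes (ACLY, SCD, ELOVL5 and FADS2) were lower in every pituitary library than in any hypothalamic library. The same held for 8.73% of all genes tested.

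The order of levels changed between tissues. In the hypothalamus MSMO1 was followed by CYP51A1 at 84.9 ± 10.5 FPKM, ACAT2 at 83.1 ± 7.71 and HMGCS1 at 68.4 ± 11.6, and the values of CYP51A1 and ACAT2 overlapped widely. In the pituitary the next after MSMO1 were HMGCS1 at 67.3 ± 32.5 FPKM and FDFT1 at 52.4 ± 9.07, with overlapping ranges, while CYP51A1 stood at 37.6 ± 10.4. MVD (13.6 and 9.64 FPKM) and HSD17B7 (9.11 and 9.17 FPKM) were the lowest in both. The HMGCS1 to SC5D ratio, chosen after the values were seen, averaged 1.48 in the hypothalamus (1.06 to 1.87) and 4.34 in the pituitary (1.90 to 7.48).

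Of the 5 sterol regulators 3 were called lower in the pituitary (INSIG1, SREBF1 and SCAP), 1 higher (SREBF2) and INSIG2 did not pass, where 32.5% of all genes were called lower and 38.3% higher. SCAP, the escort of the SREBF proteins (chromosome 2, 930719 to 981286, plus strand), was at 21.3, 16.6, 14.3, 19.6 and 20.1 FPKM in the low RFI hypothalamus and 18.5, 20.5, 21.1, 18.4 and 20.3 in the high RFI one. In the pituitary it was at 17.5, 9.33, 8.83, 8.74 and 7.52 FPKM for low RFI and 9.90, 7.85, 8.76, 9.72 and 9.75 for high RFI. Only low RFI library 1 of the pituitary reached into the hypothalamic range, and the log2 fold was -0.94 (SE 0.13, edgeR adjusted p = 3.307e-06).

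INSIG1, itself a sterol-responsive gene that retains SCAP (chromosome 2, 7910368 to 7918977, plus strand), was at 22.0, 20.9, 29.2, 26.1 and 23.3 FPKM in the low RFI hypothalamus and 24.0, 26.7, 32.7, 26.8 and 24.2 in the high RFI one. Its pituitary values were 14.7, 20.0, 18.0, 10.5 and 18.0 FPKM for low RFI and 20.6, 14.3, 10.6, 24.3 and 11.6 for high RFI. Only high RFI library 4 of the pituitary, at 24.3, lay within the hypothalamic range, near its middle. The log2 fold was -0.62 (SE 0.15, edgeR adjusted p = 0.0008742). INSIG2, the second SCAP retainer (chromosome 7, 28833298 to 28841367, minus strand), was at 35.8, 34.2, 43.0, 44.9 and 46.9 FPKM in the low RFI hypothalamus and 40.4, 40.3, 42.5, 41.3 and 38.1 in the high RFI one. The pituitary gave 41.4, 34.1, 42.9, 39.9 and 44.6 FPKM for low RFI and 43.2, 38.0, 39.9, 39.3 and 36.3 for high RFI. These 4 groups covered nearly the same range, and the 95% interval of the tissue log2 fold, -0.14 to 0.14, was the narrowest among the regulators. The INSIG2 to INSIG1 ratio, chosen after the values were seen, averaged 1.61 in the hypothalamus (1.30 to 2.02) and 2.65 in the pituitary (1.62 to 3.82).

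SREBF1, the factor tied most to fatty acid genes (chromosome 14, 5307535 to 5318482, minus strand), was the lowest regulator in both tissues. It was at 5.71, 6.11, 6.08, 6.38 and 7.67 FPKM in the low RFI hypothalamus and 7.82, 7.53, 8.46, 7.43 and 7.70 in the high RFI one. The pituitary values were 6.02, 6.43, 4.80, 4.01 and 6.03 FPKM for low RFI and 7.12, 4.42, 4.25, 6.34 and 7.62 for high RFI. The tissues overlapped (log2 fold -0.28, SE 0.11, edgeR adjusted p = 0.03259). SREBF2, the factor tied most to sterol genes (chromosome 1, 49494257 to 49513013, minus strand), was at 25.8, 17.6, 17.5, 25.0 and 26.4 FPKM in the low RFI hypothalamus and 21.4, 27.4, 25.2, 23.4 and 30.0 in the high RFI one. In the pituitary it was at 29.1, 23.4, 30.8, 25.6 and 25.4 FPKM for low RFI and 31.6, 24.8, 28.2, 26.8 and 34.6 for high RFI, also overlapping (log2 fold 0.25, SE 0.10, edgeR adjusted p = 0.02695).

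The SREBF1 call was lost without low RFI library 5 or high RFI library 3 of the hypothalamus, or without low RFI library 3 or 4 or high RFI library 2 or 3 of the pituitary (edgeR adjusted p up to 0.06525). The SREBF2 call was lost without low RFI library 2 or 3 or high RFI library 1 or 4 of the hypothalamus, or without low RFI library 3 or high RFI library 5 of the pituitary (edgeR adjusted p up to 0.06069). Each SREBF gene carries a miR-33 gene inside it on the same strand, gga-mir-33-2 in SREBF1 and gga-mir-33-1 in SREBF2, with 0 and 3 reads in all 20 libraries of this assay. SREBF2 also overlaps CCDC134 on the same strand, which averaged 17.8 FPKM against 26.0 for SREBF2.

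Among the enzymes that supply fatty acid synthesis, ACLY, which releases acetyl-CoA from citrate, was at 86.4 ± 10.1 FPKM in the hypothalamus and 50.0 ± 11.1 in the pituitary with no overlap (log2 fold -0.76). ME1, the malic enzyme that supplies NADPH, fell just short of a 2-fold difference at -0.97, as did ACSL3 at -0.91. FASN, the fatty acid synthase, was lower by 0.61 on the log2 scale (39.0 ± 3.24 and 25.0 ± 4.996 FPKM). ACACA, the carboxylase that commits carbon to the pathway, did not pass (9.42 ± 2.59 and 8.59 ± 1.90 FPKM, log2 fold -0.11, 95% interval -0.46 to 0.25). ACSS2, which makes acetyl-CoA from acetate, was called higher in the pituitary at 0.25 (edgeR adjusted p = 0.04858), and the call was lost in 16 of the 20 fits that left out 1 library. It held only without hypothalamic low RFI library 3 or without pituitary low RFI library 1, 3 or 5. Without low RFI library 2 of the pituitary its fold was 0.13.

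The 4 largest folds of the pathway belonged to enzymes of desaturation and elongation. SCD, the stearoyl-CoA desaturase that makes oleate (chromosome 6, 18321285 to 18340590, minus strand), was at 96.0, 55.6, 92.3, 106 and 82.95 FPKM in the low RFI hypothalamus and 94.7, 134, 127, 86.3 and 105 in the high RFI one. Its pituitary values were 52.4, 17.5, 10.5, 10.6 and 11.4 FPKM for low RFI and 34.4, 13.8, 9.68, 19.7 and 13.5 for high RFI. Every pituitary library lay below every hypothalamic one, with the gap narrow only for low RFI library 1 of the pituitary and low RFI library 2 of the hypothalamus. The log2 fold was -2.30 (SE 0.30, edgeR adjusted p = 2.711e-06), and -2.84 with low and high RFI libraries 1 of the pituitary left out together.

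FADS2, the delta-6 desaturase of polyunsaturated fatty acids (chromosome 5, 16940926 to 16958072, plus strand), had the highest mean level of the pathway in both tissues. Its pituitary median, 41.6 FPKM, lay below those of ACLY (46.8) and ELOVL5 (41.7). The hypothalamus gave 246, 193, 173, 218 and 223 FPKM for low RFI and 186, 251, 204, 201 and 185 for high RFI. The pituitary gave 167, 70.5, 27.2, 41.6 and 29.1 FPKM for low RFI and 47.8, 40.6, 41.5, 91.0 and 28.2 for high RFI. Low RFI library 1 of the pituitary came close to the lowest hypothalamic value while the other 9 stayed at or under 91.0 (log2 fold -1.82, SE 0.29, edgeR adjusted p = 2.246e-05).

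ELOVL2, an elongase of long polyunsaturated fatty acids on the way to docosahexaenoic acid (chromosome 2, 63142207 to 63181112, plus strand), was at 64.9, 40.5, 39.7, 54.8 and 69.3 FPKM in the low RFI hypothalamus and 52.7, 55.7, 63.6, 50.3 and 59.2 in the high RFI one. The pituitary had 47.0, 18.6, 9.71, 12.7 and 6.79 FPKM for low RFI and 12.0, 10.1, 12.4, 20.9 and 9.93 for high RFI. Low RFI library 1 alone overlapped the hypothalamic range (log2 fold -1.78, SE 0.27, edgeR adjusted p = 1.478e-05). ELOVL5, which extends shorter polyunsaturated chains (chromosome 3, 88246591 to 88283573, plus strand), was at 135, 122, 165, 171 and 144 FPKM in the low RFI hypothalamus and 162, 159.8, 170.4, 145 and 139 in the high RFI one. Its pituitary values were 91.0, 79.3, 22.7, 49.4 and 28.0 FPKM for low RFI and 45.3, 38.1, 34.7, 48.9 and 28.1 for high RFI. The tissues did not overlap for ELOVL5 (log2 fold -1.69, SE 0.20, edgeR adjusted p = 1.078e-06).

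**Figure D2:**
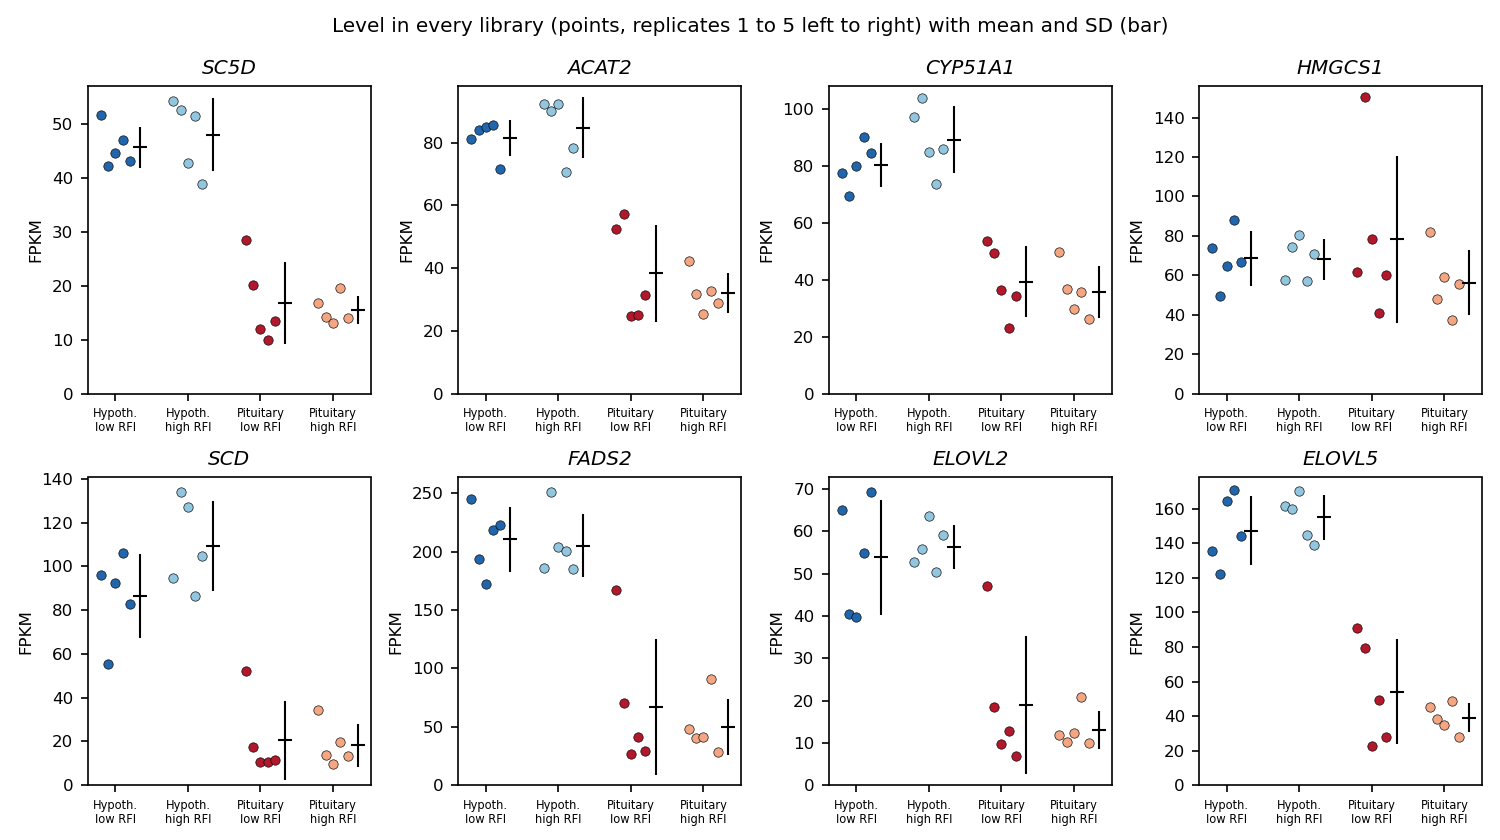
FPKM in each library for SC5D, ACAT2, CYP51A1 and HMGCS1 (top) and SCD, FADS2, ELOVL2 and ELOVL5 (bottom), with the mean and SD of each group (n = 5). All but HMGCS1 are lower in the pituitary, where low RFI library 1 holds the highest SCD (52.4), FADS2 (167), ELOVL2 (47.0) and ELOVL5 (91.0).

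The other elongases had smaller folds. ELOVL1, which lengthens saturated chains, was lower in the pituitary by 0.89 and ELOVL4, needed for very long chains, by 0.53 on the log2 scale. ELOVL6, which lengthens palmitate, did not pass (log2 fold -0.28, 95% interval -0.62 to 0.07). The acyl-CoA synthetases, which activate fatty acids, split: ACSL3 and ACSL4 were lower by 0.91 and 0.45 on the log2 scale, and ACSL1 was higher by 0.27 (16.2 ± 2.50 against 13.7 ± 1.39 FPKM, edgeR adjusted p = 0.005661). The higher call of ACSL1 held with each library left out. SCD ranked 3 of 15 by level in the hypothalamus, at 98.0 ± 22.3 FPKM, and 9 of 15 in the pituitary, at 19.3 ± 13.7. The FASN to SCD ratio, chosen after the values were seen, averaged 0.418 in the hypothalamus (0.286 to 0.705) and 1.61 in the pituitary (0.672 to 2.22).

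Within the pituitary the pathways varied between libraries more than within the hypothalamus. The median coefficient of variation of the fatty acid enzymes was 31.8% in the low RFI and 19.4% in the high RFI pituitary, against 13.7 and 12.2% in the hypothalamus. For the cholesterol enzymes the values were 22.1 and 17.5% against 10.1 and 12.4%. All genes with a mean of at least 5 FPKM varied by a median of 21.7 and 14.2% in the pituitary, and by 14.3 and 12.9% in the hypothalamus.

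The libraries behind this spread differed only in part between the pathways. Low RFI library 1 of the pituitary was the highest of the 10 for 12 of 15 fatty acid enzymes, all but ELOVL1, ACSL1 and ACSS2, while 22.4% of all genes tested were highest in it. Its fatty acid enzymes stood at a median of 1.57 times the median of the other 9 libraries, and its cholesterol enzymes at 1.16 times. Low RFI library 2 was the highest for 7 of 16 cholesterol enzymes (HMGCS1, PMVK, FDPS, SQLE, LSS, HSD17B7 and ACAT2), against 13.1% of all genes. By the same measure its cholesterol enzymes stood at 1.375 times the others and its fatty acid enzymes at 1.3 times. High RFI library 4 stood at 1.285 times for the fatty acid enzymes and 0.9625 times for the cholesterol enzymes. High RFI library 1 was above the pituitary mean for 15 of 16 cholesterol enzymes and low RFI library 4 for 1 of 16, and the share of all genes above the mean was not counted. Oligodendrocyte sums were 7508, 694, 3593 and 258 FPKM for low 1, low 2, high 1 and low 4, beside a pituitary median of 721. Their neuron sums were 2032, 1904, 297 and 430 FPKM in the same order, beside a median of 488. Low 2 had the highest cholesterol sum of the 10, 651 FPKM, and the second highest neuron sum. High 1 had the second highest cholesterol sum, 561 FPKM, and the lowest neuron sum. Astrocyte and tanycyte sums were 1442, 594, 948 and 481 FPKM in the same order. The part of other cell types in these differences was not tested.

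In the hypothalamus, low RFI library 4 was above the tissue mean for all 16 cholesterol enzymes, though by a median of only 0.16 on the log2 scale. The share of all genes above or below the mean was not counted here either. Low RFI library 2 was the lowest of the 10 for 8 of 15 fatty acid enzymes and 6 of 16 cholesterol enzymes, against 19.3% of all genes. It was the highest for 2 of 15 fatty acid enzymes, ACSL3 and ME1, against 17.6% of all genes. Its 5 sterol regulators were all below the tissue mean. This library had the lowest oligodendrocyte sum, the highest pineal and choroid plexus sum and the highest mitochondrial share of counts (20.1%). The part of these traits was not tested.

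**Figure D3:**
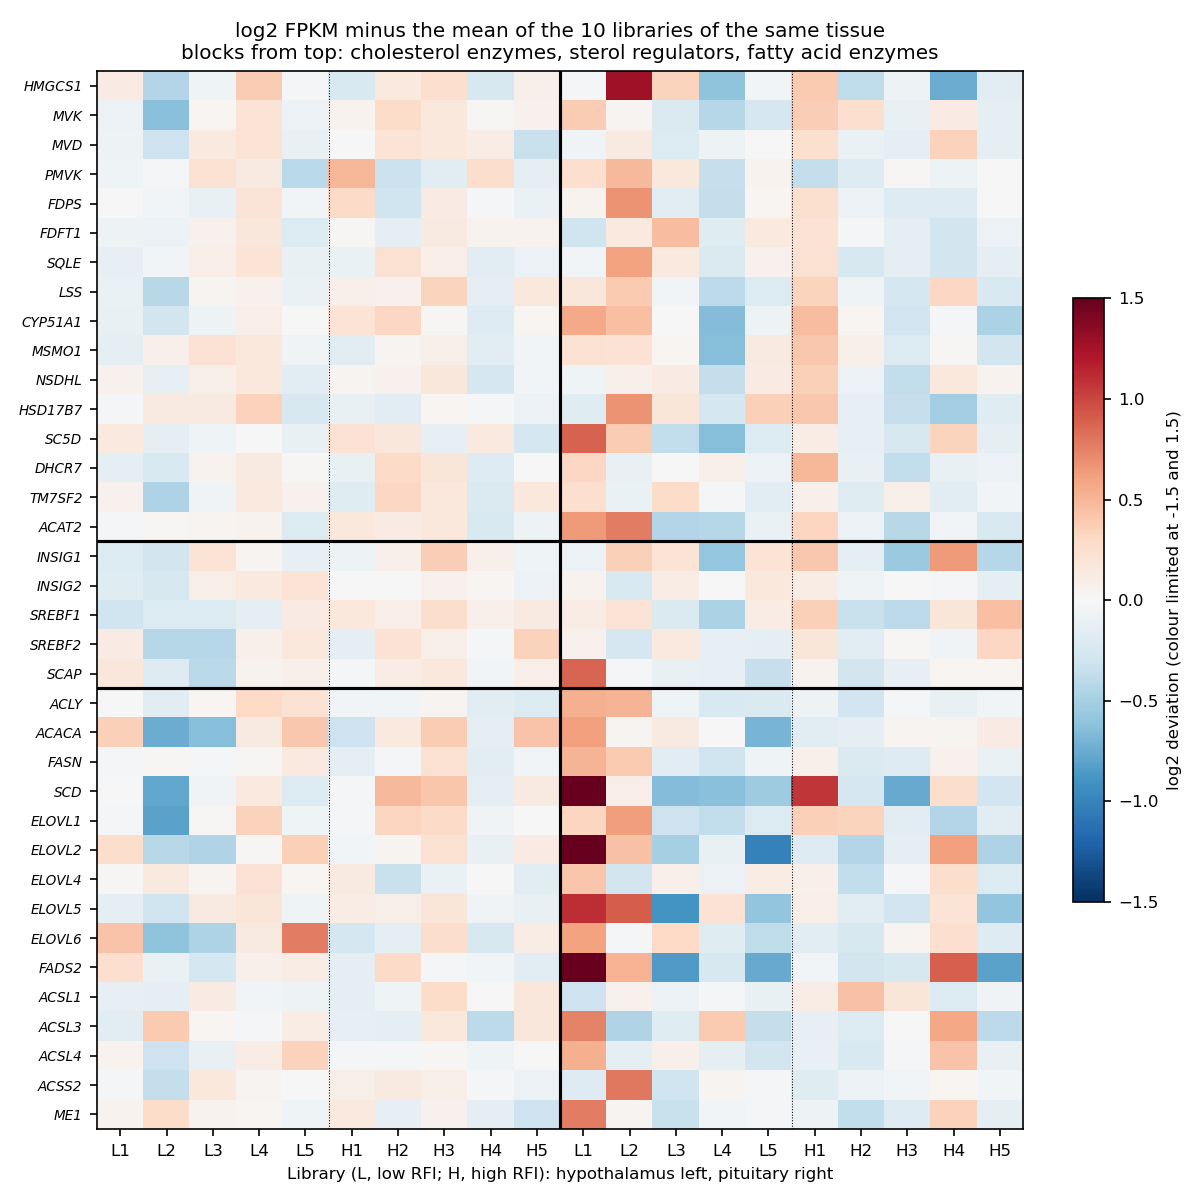
Log2 FPKM of each gene (rows) in each library (columns) minus the mean of the 10 libraries of that tissue. Low RFI library 1 of the pituitary is red for most fatty acid enzymes, and low RFI library 2 for HMGCS1, FDPS, SQLE, HSD17B7 and ACAT2.

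**Figure D4:**
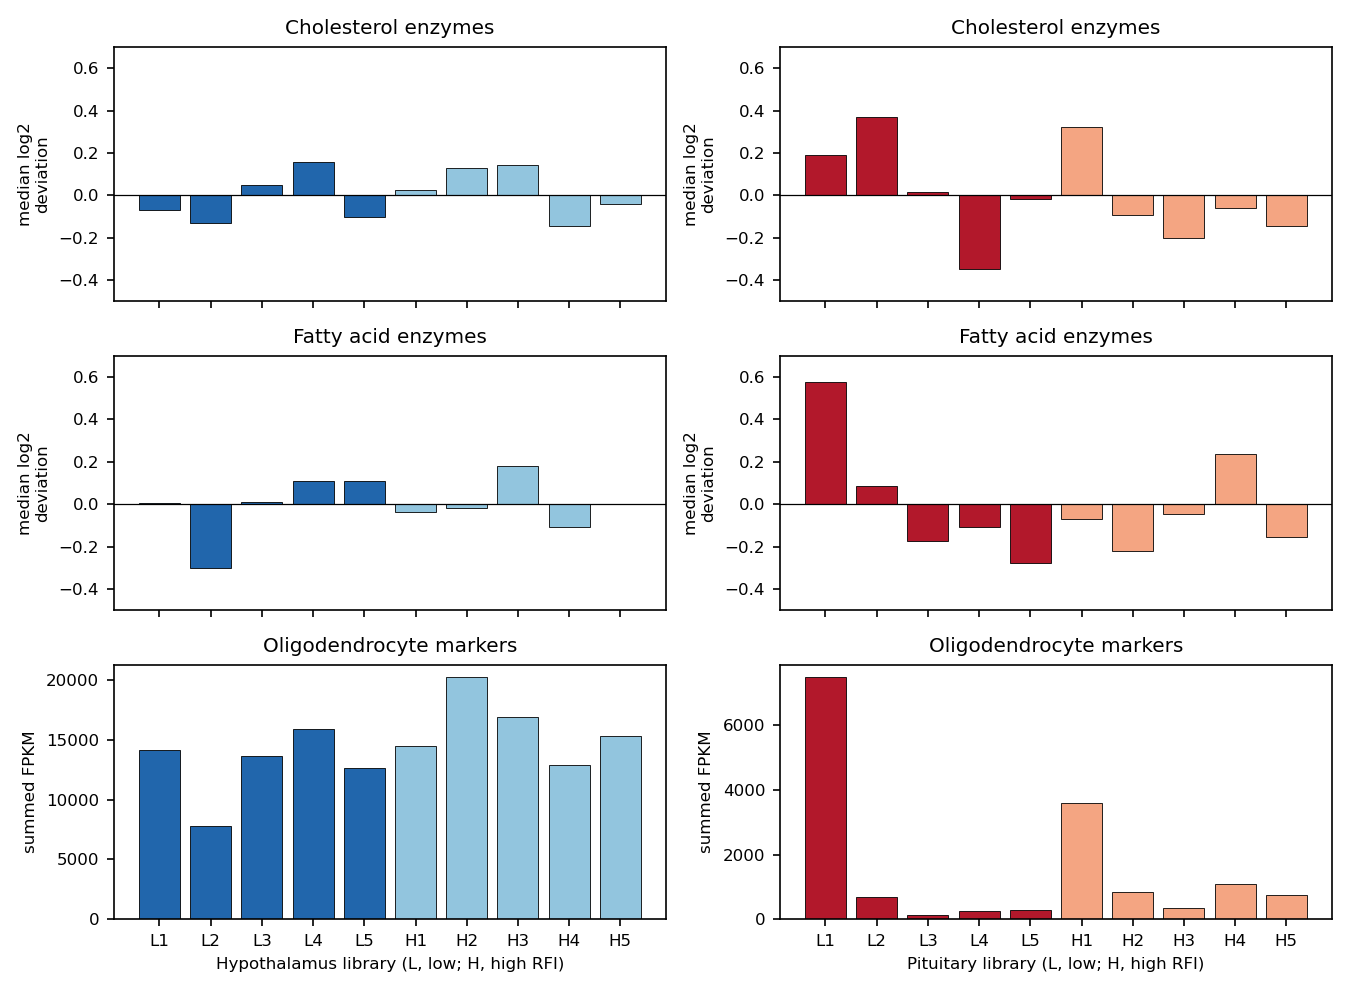
Median log2 deviation of the cholesterol (top) and fatty acid enzymes (middle) from the tissue mean, and summed FPKM of oligodendrocyte markers (bottom, with a separate scale per tissue), in each library. Low RFI library 1 of the pituitary has the highest fatty acid median (0.58) and marker sum (7508), and low RFI library 2 the highest cholesterol median (0.37). Low RFI library 1 also has the highest pituitary sums of neuron (2032) and of astrocyte and tanycyte markers (1442), which are not drawn. The part of these cell types was not tested.

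No member passed the test for feed efficiency, the contrast the study was built on. In the hypothalamus 0 of 36 members were called between low and high RFI by edgeR, and 0% of the 15179 genes tested were. At an unadjusted p under 0.05 there was 1 member, SREBF1, beside 4.8% of all genes (2.78% lower), and DESeq2, limma-voom and limma on log2 FPKM each gave the same single member and called none. SREBF1 was lower in the low RFI birds, 6.39 ± 0.756 FPKM against 7.79 ± 0.404 (n = 5 each). In 4 of the 5 low RFI libraries SREBF1 lay below every high RFI library, and low RFI library 5, at 7.67, lay among them. Its log2 fold (low minus high) was -0.29 (95% interval -0.50 to -0.08, edgeR unadjusted p = 0.0115, adjusted p = 0.9644).

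Next by p in the hypothalamus came SCD and LSS. SCD averaged 86.6 ± 19.2 FPKM in low and 109 ± 20.6 in high RFI birds, with overlapping values and low RFI library 2 the lowest at 55.6 (log2 fold -0.35, 95% interval -0.71 to 0.02, edgeR adjusted p = 0.9644). Without that library the fold was -0.22. LSS was at 20.0, 16.1, 22.2, 22.4 and 20.0 FPKM in low RFI and 22.7, 22.5, 27.1, 19.6 and 23.9 in high RFI libraries (log2 fold -0.21, 95% interval -0.44 to 0.03, edgeR adjusted p = 0.9644). The median log2 fold was -0.06 for the cholesterol enzymes, -0.15 for the regulators and 0.03 for the fatty acid enzymes, beside 0.01 for all genes. A value above 0 was held by 4 of 16 cholesterol and 8 of 15 fatty acid enzymes, where 51.8% of all genes had one. Folds lay from -0.21 to 0.15 over the cholesterol enzymes and from -0.35 to 0.18 over the fatty acid enzymes. Of 10 oligodendrocyte markers tested, 9 had a value below 0, with a median log2 fold of -0.34 and none called, and their sums ran from 7799 to 15898 FPKM in low RFI and 12899 to 20306 in high RFI libraries. All 9 fibroblast and meninges markers had a value above 0 (median 0.31), as did 7 of 10 neuron markers (median 0.10) and 3 of 8 astrocyte and tanycyte markers (median -0.05), with none called. The part of these cell types in the folds was not tested.

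In the pituitary 0 of 36 members were called by edgeR, with 0% of 15786 genes called, and 0 members reached an unadjusted p under 0.05, beside 1.88% of all genes. DESeq2, limma-voom and limma on log2 FPKM also gave 0 on both counts. The smallest p belonged to PMVK, at 25.2, 29.6, 23.5, 16.6 and 21.9 FPKM in low RFI and 16.4, 18.5, 21.4, 20.1 and 21.0 in high RFI libraries (log2 fold 0.26, 95% interval -0.09 to 0.62, edgeR adjusted p = 0.9994). ACSL1 was at 12.9, 16.7, 15.0, 15.7 and 14.8 FPKM in low RFI and 17.3, 21.7, 18.1, 13.9 and 15.4 in high RFI libraries (log2 fold -0.20, 95% interval -0.47 to 0.07, edgeR adjusted p = 0.9994). Both genes overlapped between the groups, low RFI library 4 holding the second lowest PMVK value. SQLE was at 20.1, 31.2, 22.8, 17.7 and 21.6 FPKM in low RFI and 24.2, 17.4, 18.7, 17.1 and 18.5 in high RFI libraries (log2 fold 0.24, 95% interval -0.11 to 0.60, edgeR adjusted p = 0.9994). Without low RFI library 2, where SQLE was highest, its fold was 0.10.

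The largest pituitary folds of the 36, none of which passed, had wide intervals. ELOVL2 had a log2 fold of 0.55 (95% interval -0.56 to 1.65), HMGCS1 of 0.48 (-0.27 to 1.22), ELOVL5 of 0.48 (-0.36 to 1.32) and FADS2 of 0.44 (-0.75 to 1.62). Without low RFI library 1 the folds of ELOVL2 and FADS2 were -0.13 and -0.24, and without low RFI library 2 that of HMGCS1 was 0.10. The median log2 fold was 0.18 for the fatty acid enzymes, 14 of 15 with a value above 0, where 55.5% of all genes had one. Without low RFI library 1 it was -0.02, with 4 of 15 above 0. For the cholesterol enzymes the median was 0.12 with 12 of 16 above 0, and 0.03 with 9 of 16 without that library. All 11 oligodendrocyte markers also had a value above 0, with a median of 0.51 and none called, and their sums ran from 134 to 7508 FPKM in low RFI and 328 to 3593 in high RFI libraries. So had 9 of 10 neuron markers (median 0.56) and 3 of 8 astrocyte and tanycyte markers (median -0.13), while all 9 fibroblast and meninges markers (median -0.29) and all 6 macrophage markers (median -0.20) had a value below 0, with none called. The part of these cell types was not tested. No member had low and high RFI values that did not overlap in either tissue, which 0.83% of all genes had in hypothalamic and 0.247% in pituitary libraries.

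The difference of the RFI contrast between tissues was called for 0 of 36 members, with 0% of 16747 genes called and 0 members at an unadjusted p under 0.05 beside 2.34% of all genes. The largest was that of ELOVL2 (log2 difference 0.60, 95% interval -0.51 to 1.71). The narrowest intervals were those of INSIG2 at 0.03 (-0.25 to 0.31) and, among the fatty acid enzymes, ACSL1 at -0.10 (-0.43 to 0.24) and ELOVL4 at -0.08 (-0.47 to 0.31). Differences within these intervals were not excluded with this number of libraries.

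**Figure D5:**
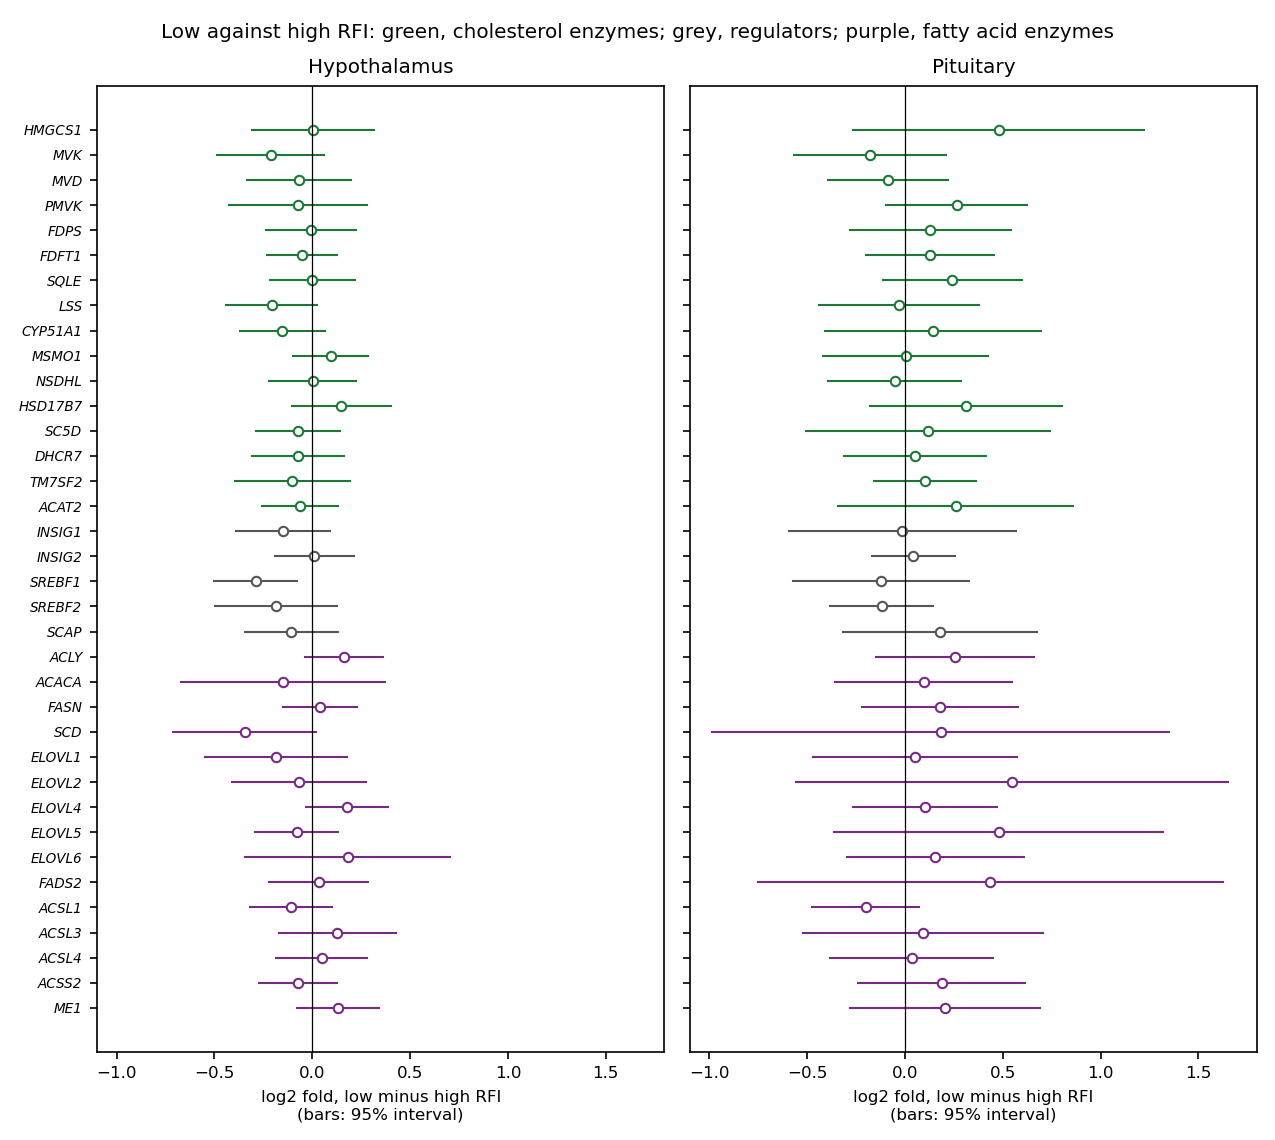
Log2 fold, low minus high RFI, of each of the 36 genes with its 95% interval, in the hypothalamus (left) and pituitary (right), 5 libraries a group. All intervals include 0 except that of SREBF1 in the hypothalamus (-0.50 to -0.08), and those of SCD, ELOVL2 and FADS2 in the pituitary are the widest.

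Of 22 genes tested that carry or remove sterols, 5 were higher and 9 lower in the pituitary, where 38.3% of all genes were called higher and 32.5% lower, 70.8% in all. ABCA1, which exports cellular cholesterol, was at 14.4 ± 3.79 FPKM in the pituitary and 1.91 ± 0.650 in the hypothalamus (log2 fold 2.94, edgeR adjusted p = 1.611e-09). VLDLR, a lipoprotein receptor, was higher by 2.74, MYLIP, a ligase that degrades lipoprotein receptors, by 1.59, and ABCG1, another sterol exporter, by 1.22 on the log2 scale. Values of ABCA1, VLDLR and MYLIP were higher in every pituitary library than in any hypothalamic one, as held for 10.2% of all genes. PLTP, a phospholipid transfer protein, was lower by 1.99, the receptor LRP8 by 1.68, the lipoprotein receptor SCARB1 by 1.23 and the apolipoprotein APOA1 by 0.91. APOA1 stood at 1095 ± 197 and 569.9 ± 144 FPKM in hypothalamus and pituitary.

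Partners of fatty acid synthesis in uptake, binding and storage were 12 lower and 4 higher of 23 tested, against 32.5% and 38.3% of all genes. The fatty acid transporter CD36 was higher in the pituitary by 4.44 on the log2 scale, from 0.222 ± 0.149 to 4.72 ± 3.94 FPKM, the lipid-responsive factor PPARG by 3.45, the fatty acid binding protein FABP4 by 1.38 and AGPAT2, an acyltransferase of lipid assembly, by 0.67. The fat cell marker list, 7 genes that include PPARG and FABP4, summed to 9.73 to 26.3 FPKM in hypothalamic and 26.1 to 67.1 in pituitary libraries, and its part in these folds was not tested. The brain acyl-CoA synthetase ACSBG1 was lower by 2.66, the elongase ELOVL3 by 2.29, FABP5 by 1.97 and FABP7, a fatty acid binding protein of glia, by 1.83.

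Of 13 genes of fatty acid oxidation, 2 were higher and 4 lower in the pituitary, against 38.3% and 32.5% of all genes. HADH, a dehydrogenase of beta oxidation, was higher by 0.98 and CPT1A, which admits fatty acids to mitochondria, by 0.65 on the log2 scale. PPARGC1A, a coactivator of oxidative genes, was lower by 1.12, HADHB by 0.33 and HADHA by 0.20. The median log2 fold was -0.06 for these 13, -0.10 for sterol transport and -0.32 for the fatty acid partners.

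None of these lists held a gene called between RFI groups in either tissue. The smallest unadjusted p in the hypothalamus was that of APOA1 (log2 fold -0.37, 95% interval -0.62 to -0.12, edgeR adjusted p = 0.9644), followed within its list by LCAT (-0.49, -0.98 to 0.01). The oxidation genes ACADS (-0.25, -0.47 to -0.02) and CPT1A (0.25, -0.09 to 0.58) and the partners DGAT2 (1.19, -0.12 to 2.50) and ACSBG2 (-0.29, -0.62 to 0.04) followed in their lists. In the pituitary every such interval included 0: NR1H3 at -0.14 and STARD3 at 0.18 for sterol transport, HACD1 at 0.58 and HACD3 at 0.22 among the partners, and PPARGC1A at 0.63 for oxidation.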

How the data were processed

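RNA sequencing was done on TRIzol-extracted total RNA, 1 µg per library, with RNA integrity numbers from 7.7 upward, per the labels' protocols. The submitters' processing notes name HISAT2 2.0.5, DESeq2 1.20.0 and the GRCg6a chicken genome. The counting tool, and whether strand was used, is not given in the sources used here. The authors deposited raw counts per gene and FPKM. The deposited FPKM equal count divided by gene length and by 1 size per library (largest relative deviation 5.33e-15), so they compare genes per length. That size correlated at 1 with the median-ratio size factor, the median over genes of a library's count relative to the geometric mean of all libraries. It is therefore not the total count of the library. Gene names and positions were taken from the deposited table.

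Counts were tested in R 4.3.3 with edgeR 4.0.16 (TMM, filterByExpr, robust quasi-likelihood test, Benjamini-Hochberg over all genes tested, threshold 0.05), each tissue alone for RFI and all 20 libraries for tissue and for the tissue difference of the RFI contrast. Standard errors are the log2 fold divided by the root of F, and intervals are 95%. Alternatives were RLE scaling, no filter, DESeq2 1.42.0, limma 3.58.1 (voom, and log2 of FPKM plus 0.5), a replicate block, and libraries left out. The test was also run on counts simulated as independent libraries, with the spread of each gene estimated from these data. Such counts cannot show whether the pituitary libraries are independent. Across genes tested, median standard errors were 0.162 for hypothalamic RFI, 0.227 for pituitary RFI, 0.163 for tissue and 0.322 for the tissue difference. The part of sequencing depth in these errors was not tested.

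Members and lists were chosen with earlier results of these data known. Library values are given for members of either pathway with the largest passing tissue folds of at least 2 (up to 5 a direction), the 3 of smallest p per RFI comparison and every regulator, and from each other list up to 4 genes per direction and 2 per RFI comparison. HMGCS1 and the ratios were chosen after their values were seen. For 1 gene that this rule names, values are not reported here.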

Additional observations from a re-analysis of the deposited data

Results flagged for a closer look

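Over the 36 genes and 4 groups of 5 libraries, 144 sets were screened for a library whose gap to the next exceeds 0.71 of the set's range (Dixon's test). By chance about 1 in 20 sets would be picked, 7.2 of 144, and 11 were. Highest and lowest here mean within the 5 libraries of the same tissue and RFI group, and the other values are those of that group. In the pituitary, low RFI library 1 was the highest for SCD (52.4 FPKM, others 10.5 to 17.5), ME1 (41.6, others 19.4 to 25.2) and SCAP (17.5, others 7.52 to 9.33). Low RFI library 2 was the highest for ACSS2 (35.9 FPKM, others 16.8 to 21.3), and low RFI library 4 the lowest for MSMO1 (44.7 FPKM, others 71.4 to 81.6). High RFI library 1 was the highest for DHCR7 (27.1 FPKM, others 14.9 to 18.1) and SQLE (24.2, others 17.1 to 18.7). High RFI library 4 was the highest for ACSL4 (41.6 FPKM, others 26.4 to 30.2) and ELOVL2 (20.9, others 9.93 to 12.4). In the hypothalamus, low RFI library 5 was the highest for FASN (42.9 FPKM, others 38.1 to 39.5) and high RFI library 2 for FADS2 (251 FPKM, others 185 to 204).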

How the results depend on the processing

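The counts of 11 cholesterol and 11 fatty acid enzymes lower in the pituitary stayed within 11 to 12 under every alternative. The 1 cholesterol enzyme called higher was 0 under RLE scaling, DESeq2, limma on log2 FPKM and the replicate block, and 0 to 1 with a library left out. The 2 fatty acid enzymes called higher were 1 under RLE scaling, no filter, DESeq2, both limma fits, the replicate block and without the 5 libraries that earlier results single out (hypothalamic low 2 and pituitary low 1, low 2, low 4 and high 4), and 1 to 2 with a library left out. The 1 regulator called higher was 0 without pituitary libraries low 1 and high 1 (an alternative chosen after seeing the data), and 0 to 1 with a library left out. DESeq2 called 5 genes for RFI in the hypothalamus and 2 for the tissue difference where edgeR called 0, none of them a member.

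Several folds near 0 changed sign. The tissue fold of INSIG2 was -0.029 with RLE scaling, -0.0024 with no filter, -0.028 with DESeq2, -0.026 with limma on log2 FPKM, -0.021 without pituitary low 1 and high 1 and -0.037 to 0.032 with a library left out. That of HSD17B7 was -0.0025 with limma-voom, -0.025 with limma on log2 FPKM, -0.014 without pituitary low 1 and high 1 and -0.053 to 0.080 with a library left out. With a library left out that of HMGCS1 was -0.20 to 0.068, that of TM7SF2 -0.065 to 0.014, and the hypothalamic RFI fold of INSIG2 -0.047 to 0.064. The pituitary RFI fold of INSIG1 was 0.035 with limma-voom, 0.030 with limma on log2 FPKM, 0.044 with the replicate block, 0.33 without the 5 libraries, 0.12 without pituitary low 1 and high 1, and -0.13 to 0.19 with a library left out. That of SCAP was -0.15 and -0.068 without those sets, and -0.095 to 0.30 with a library left out. The cause was not tested. Whether equal replicate numbers pair libraries was not settled. Of 5 pairs, 0 to 3 correlated above 0.1 in each pairing. The highest value was 0.356 for pituitary low with high, and the lowest was -0.357 for low RFI hypothalamus with pituitary. Pairs of unequal number were not compared, so this check cannot decide. The block called 11574 genes between tissues against 11862.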
